A study of Mus musculus with 7 samples.

Results

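The tumour necrosis factor (TNF) superfamily is a set of cytokines and their receptors that set the strength and duration of inflammation, direct the survival of lymphocytes and can trigger cell death. The 10 genes described here are 6 ligands (Tnf, Lta, Ltb, Tnfsf9, Tnfsf10 and Tnfsf13b) and 4 receptors (Tnfrsf1a, Tnfrsf1b, Cd40 and Fas), found by symbol among the 17920 genes of the table. Each symbol was listed once, and all 10 passed the filter on low values that left 11378 genes for testing.

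RNA was measured in spleen of C57BL/6 mice aged 8 weeks that had received an intraperitoneal injection of lipopolysaccharide (LPS, the endotoxin of Gram-negative bacteria) at 20 mg/kg. The mice were wild type or lacked GdX, labelled both GdX-/- and GdX-/Y. GdX, also called UBL4A, is a ubiquitin-like protein encoded on the X chromosome. Spleens were taken 90 min or 6 h after the injection, and each of the 4 groups, GdX-deficient and wild type at either time, held 2 libraries except the GdX-deficient group at 6 h, which held 1. In what follows, early stands for 90 min and late for 6 h. Every mouse had received LPS, and no unstimulated spleen was analysed here. The series names 4 wild-type and 3 GdX-deficient mice, which is 1 mouse for each library, without tying a library to a mouse. The labels call the source splenocytes, while the protocol crushes the whole spleen, and they offer oligo dT selection or rRNA depletion without saying which was used.

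TNF family ligands are made as trimers on the cell surface or released from it, and each binds 1 or a few receptors. Receptors without a death domain, such as CD40, recruit TRAF adaptor proteins and switch on NF-kB, while those with a death domain, such as Fas and TNF receptor 1, can also engage caspases. In the spleen, TNF, lymphotoxin alpha and lymphotoxin beta are known for organising B-cell follicles and the marginal zone, and TNF is among the first cytokines released after LPS.

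The libraries held an estimated 19300000 to 20900000 mapped fragments. The targeted gene was checked first. The GdX-deficient libraries held 4.03 and 5.69 FPKM of Ubl4a early and 10.6 FPKM late, and wild type held 5.62 and 7.50 FPKM early and 11.9 and 14.0 FPKM late, so the genotypes overlapped early. The overlapping entry Gm44504 lay between 0.66 and 1.86 FPKM across the 3 GdX-deficient libraries, against 14.5 to 51.1 FPKM across the 4 of wild type. The globin share of all FPKM was 7.73% to 30.9% by library. The median of all 11378 log2 differences between genotypes was 0.07 at 90 min and 0.32 at 6 h. Quantile normalization brought the latter to -0.02, and rescaling without globin genes raised the medians to 0.27 and 0.59. All 8 B-cell and all 8 T-cell markers of the fixed lists were above 0 in every library. In these bulk samples, fewer cells of a type and less RNA per cell cannot be told apart.

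Tnf, Lta and Ltb are neighbours on chromosome 17 in the order Ltb, Tnf, Lta, with no other protein-coding gene between them in the RefSeq annotation of GRCm38.p6. The stretches upstream of the start sites of Tnf and Ltb are shown, since Ltb was the single member called between genotypes and Tnf is its nearest neighbour in the family. Tnf lies on the minus strand and Ltb on the plus strand, and RefSeq sequences are given 5′ to 3′ on the strand of the gene. Of the 250 bases upstream of Ltb, the last 68 were left out, from the first base of an Ltb exon in GENCODE M21 onwards. Capitals mark matches to the motifs searched.

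Tnf, GRCm38.p6, chr17:35202008-35202257, minus strand: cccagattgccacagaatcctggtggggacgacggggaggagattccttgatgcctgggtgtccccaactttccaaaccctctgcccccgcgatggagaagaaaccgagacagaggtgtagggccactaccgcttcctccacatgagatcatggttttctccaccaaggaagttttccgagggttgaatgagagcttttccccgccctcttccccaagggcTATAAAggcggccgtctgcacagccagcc
Ltb, GRCm38.p6, chr17:35194257-35194438, plus strand: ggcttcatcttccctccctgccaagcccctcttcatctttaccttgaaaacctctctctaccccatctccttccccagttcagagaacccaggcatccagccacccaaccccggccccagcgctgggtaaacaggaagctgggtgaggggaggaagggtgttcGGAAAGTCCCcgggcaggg

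Both strands of the 250 upstream bases were searched for 4 motifs in 9 windows of the 8 members with an entry. The letters TATAAA, those of a TATA box, were found upstream of Tnf, starting 29 bases before the start site, and upstream of Lta, starting 167 bases before it. They were present in 12.4% of all 32851 RefSeq windows. A match to the NF-kB consensus was found in the window of Ltb, on the minus strand, and in none of the windows of the other members. This motif was present in 7.25% of all windows. The interferon response motif, a repeat of TTTC with 2 bases between the copies, present in 2.98% of all windows, was found for Tnfrsf1b and Tnfsf13b. The AP-1 motif TGANTCA, present in 6.75%, was found for Fas and Tnfsf13b. The searched motifs did not overlap in the printed stretches, and a match describes letters only.

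Levels differed widely among the members. FPKM is scaled to transcript length, but differences between replicates still varied with length, as given further on. The order of the genes is therefore approximate. In wild type at 90 min, Ltb was highest at 416 ± 82.2 FPKM (SD, n = 2), followed by Cd40 at 277 ± 30.0 FPKM. Tnfsf9, Tnf, Tnfrsf1b and Fas came next, at 61.8 ± 6.41, 61.1 ± 2.16, 57.5 ± 14.5 and 56.1 ± 1.04 FPKM (SD, n = 2 each). Genes next to each other among these 4 did not differ beyond their spread. Lta followed at 38.4 ± 2.35 FPKM and Tnfrsf1a at 26.6 ± 11.9 FPKM, and the means of these neighbours lay within 1 SD of Tnfrsf1a. Tnfsf10 at 9.16 ± 3.25 and Tnfsf13b at 2.29 ± 0.537 FPKM (SD, n = 2 each) were the lowest.

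**Figure D1:**
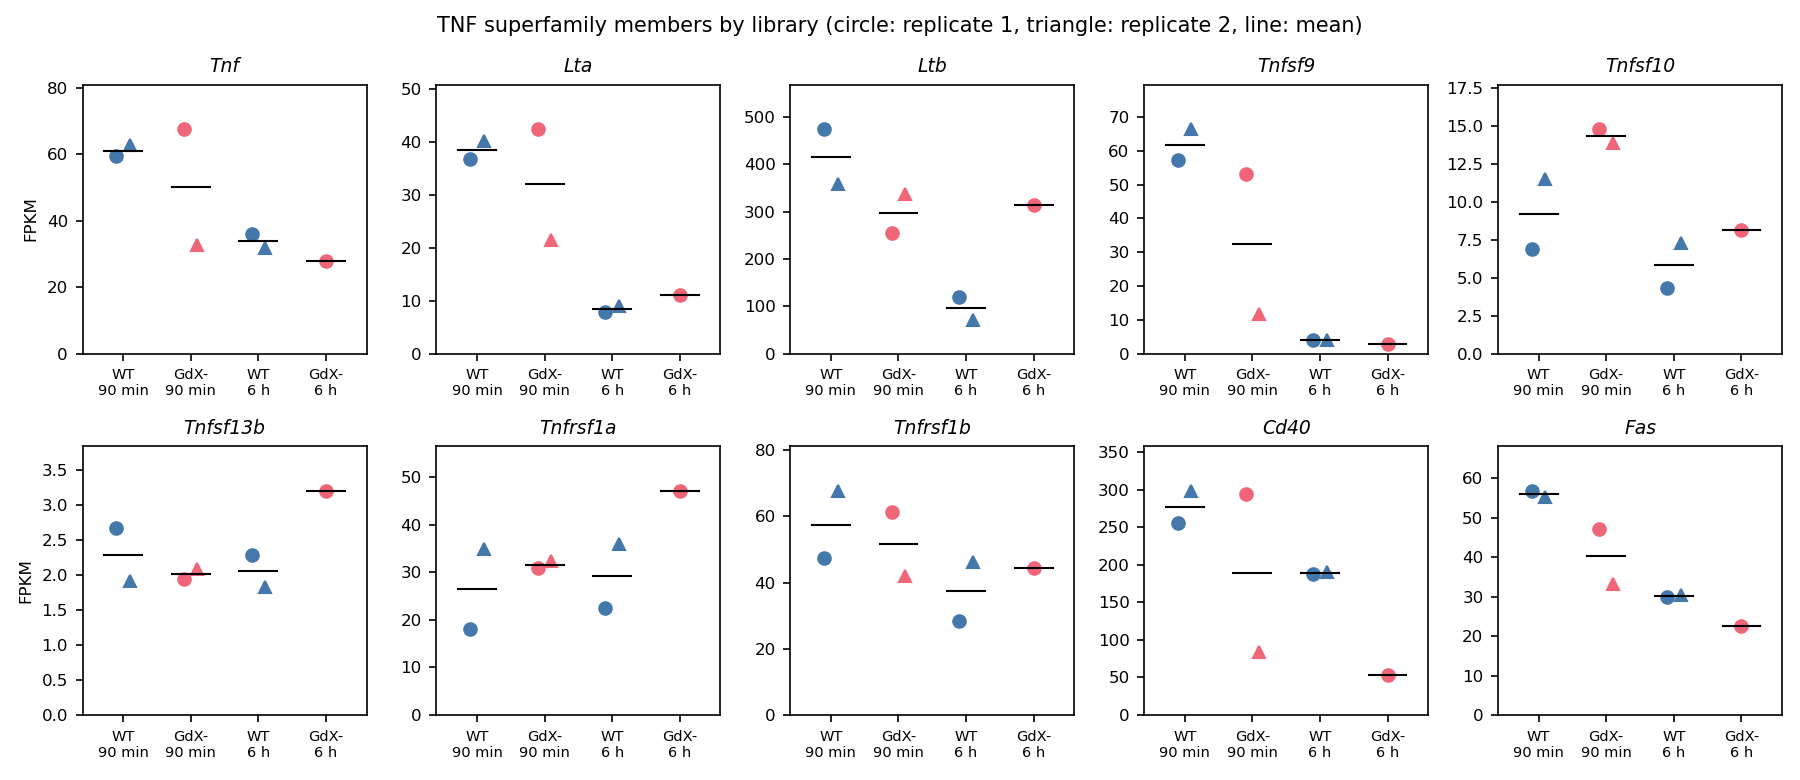
Each panel plots the FPKM of 1 gene (vertical axis, from 0) in the 7 libraries, by group: wild type (WT, blue) and GdX-deficient (GdX-, red) at 90 min and 6 h after LPS. Circles are replicate 1, triangles replicate 2 and lines group means; Ltb falls in wild type and reaches 314 FPKM in the late GdX-deficient library, while Cd40 is lowest in that library, 53.3 FPKM.

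The change with time after LPS was examined first in wild type, 6 h against 90 min. The ligands Lta, Ltb and Tnfsf9 fell, and none of the 10 members rose. With limma, 3 of the 10 members passed the threshold as lower at 6 h, against 6.32% of all genes tested, and 0 as higher, against 4.39%. Over all genes that was 719 lower and 499 higher calls, and rescaling without globin genes gave 525 and 187. The 2 wild-type groups did not overlap for 7 members that were lower at 6 h (27.6% of all genes) and for 0 that were higher (30.3%). The median log2 difference of the members was -0.73, against 0.05 for all genes.

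Tnfsf9 encodes 4-1BB ligand, which antigen-presenting cells display to activated T cells. The early wild-type libraries held 57.3 and 66.3 FPKM and the late ones 4.11 and 4.04 FPKM. Both late libraries lay far below both early ones. The log2 difference was -3.63 (SE 0.55, limma adjusted p = 0.00646), the largest of the members in size. This call was lost without a filter on low values (limma adjusted p = 0.0583). Tnfsf9 overlaps the noncoding entry Gm11110 in GRCm38.p6, and fragments of overlapping entries cannot be told apart where the use of strand is unknown.

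Lta encodes lymphotoxin alpha, a secreted ligand that shares the TNF receptors and, joined to lymphotoxin beta, binds the lymphotoxin beta receptor. It measured 36.7 and 40.1 FPKM early, then 7.89 and 8.98 FPKM late. The groups were separate by a wide gap. The log2 difference was -2.06 (SE 0.34, limma adjusted p = 0.00779).

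Ltb encodes lymphotoxin beta, the subunit that anchors the lymphotoxin heterotrimer to the membrane of lymphocytes. Early levels were 474 and 358 FPKM, late levels 121 and 71.2 FPKM. Both late libraries were below both early ones. The log2 difference was -2.14 (SE 0.32, limma adjusted p = 0.00637), a level 0.227 times that at 90 min on the log2(FPKM + 1) scale.

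Tnf itself did not pass the threshold. It measured 59.6 and 62.7 FPKM early, then 35.9 and 31.8 FPKM late. The groups were separate, with a log2 difference of -0.84 (SE 0.34, limma adjusted p = 0.141). Fas, the death receptor for Fas ligand, had a similar course, from 56.8 and 55.4 FPKM to 29.9 and 30.4 FPKM. Its log2 difference was -0.87 (SE 0.26, limma adjusted p = 0.0639), and it passed with the replicate number as a block (limma adjusted p = 0.0371).

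The remaining members differed by less. Cd40, the receptor through which T-cell help reaches B cells and other antigen-presenting cells, measured 256 and 298 FPKM early, then 188 and 191 FPKM late (log2 difference -0.54, SE 0.48, limma adjusted p = 0.497). Tnfrsf1b, TNF receptor 2, stood at 47.3 and 67.7 FPKM and then at 28.5 and 46.2 FPKM, lower in both late libraries (limma adjusted p = 0.242). The levels of Tnfsf10, Tnfsf13b and Tnfrsf1a overlapped between the times, with limma adjusted p of 0.309, 0.838 and 0.795. Tnfsf10 encodes TRAIL, a ligand that can trigger apoptosis, Tnfsf13b encodes BAFF, a survival factor of B cells, and Tnfrsf1a encodes TNF receptor 1.

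Differences between wild-type replicates were large for some of these genes. Tnfrsf1a measured 18.2 FPKM in replicate 1 and 35.0 FPKM in replicate 2 early, then 22.6 and 36.0 FPKM late. Replicate 2 was also the higher library at both times for Lta, Tnfsf10, Tnfrsf1b and Cd40, and the lower one for Ltb and Tnfsf13b. A length was taken for the 4 members with 1 listed transcript, 4993 bases for Tnfsf10, 3818 for Tnfrsf1b, 2156 for Tnfrsf1a and 1160 for Ltb. Over the 833 tested genes with a transcript under 1500 bases, the median log2 difference of replicate 2 from replicate 1 was -0.23 at 90 min and -0.42 at 6 h in wild type. Over the 1218 genes from 1500 to under 3000 bases, the range that holds Tnfrsf1a, it was 0.08 and 0.14. Over the 1046 genes of 3000 bases or more it was 0.20 and 0.44. In GdX-deficient spleen at 90 min these medians were 0.06, 0.12 and 0.19, from the shortest to the longest transcripts. The part of transcript length in the results was not tested.

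In GdX-deficient spleen, time was compared between 1 library at 6 h and 2 at 90 min. With limma, 0 of the 10 members and 0% of all genes passed the threshold in this comparison. At an unadjusted p under 0.05 there were 4 of the 10 members and 910 genes, 8% of those tested. Of the members, 6 lay below both 90 min libraries at 6 h (15.8% of all genes) and 2 above both (56.8%). Their median log2 difference was -0.74, against 0.25 for all genes. The groups compared in wild type and in GdX-deficient spleen share no library. Both tests come from the same fit of all 7 libraries, though, and share its estimate of spread, so they are not independent. Each also shares its libraries with the genotype comparisons given further on.

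Tnfsf9 measured 53.2 and 11.6 FPKM early and 2.78 FPKM late in GdX-deficient spleen, a log2 difference of -2.79 (SE 0.68, limma adjusted p = 0.198). The difference was -1.74 without early replicate 1 and -3.84 without early replicate 2. The late library was the lowest of all 7. Across the alternatives its adjusted p ranged from 4.14e-06 to 0.331, and it passed in 6 of 13: with only the libraries compared, without replicate 2 of the early GdX-deficient group (0.0492), and without any 1 of the 4 wild-type libraries. Lta stood at 42.3 and 21.5 FPKM and then at 11.0 FPKM (log2 difference -1.38, SE 0.41, limma adjusted p = 0.319). For Tnf, the 90 min libraries held 67.5 and 32.6 FPKM and the 6 h library 27.9 FPKM (-0.73, SE 0.41, limma adjusted p = 0.756). Fas stood at 47.2 and 33.3 FPKM and then at 22.7 FPKM (-0.78, SE 0.32, limma adjusted p = 0.587). For these 4 genes the single late library lay below both early ones, as in wild type, but none passed the threshold. Cd40 measured 294 and 83.7 FPKM early and 53.3 FPKM late (-1.54, SE 0.59, limma adjusted p = 0.508). It passed in 1 of 13 alternatives, the fit of only the libraries compared (limma adjusted p = 0.000702), and was -0.64 without early replicate 1 and -2.44 without early replicate 2. Tnfsf10 also lay lower late, while Tnfsf13b and Tnfrsf1a lay higher and Tnfrsf1b lay between its early libraries, with limma adjusted p of 0.757, 0.792, 0.809 and 0.893.

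For Ltb, GdX-deficient spleen held 254 and 338 FPKM early and 314 FPKM late. The late library lay between the early ones, and the log2 difference was 0.10 (SE 0.39, limma adjusted p = 0.945). The difference between this value and the fall in wild type was tested as an interaction, which came to a log2 value of 2.24 (SE 0.51, limma adjusted p = 0.143) and did not pass the threshold. The 8 genes called in the interaction are 0.0703% of those tested, and 0 members were among them. At an unadjusted p under 0.05 there were 1136 genes, 9.98% of those tested, and 1 of the 10 members, Ltb. The Ltb interaction passed without replicate 1 of wild type at 6 h (2.61, limma adjusted p = 0.00262) and without replicate 2 (1.86, limma adjusted p = 0.0282), in 2 of 13 alternatives.

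**Figure D2:**
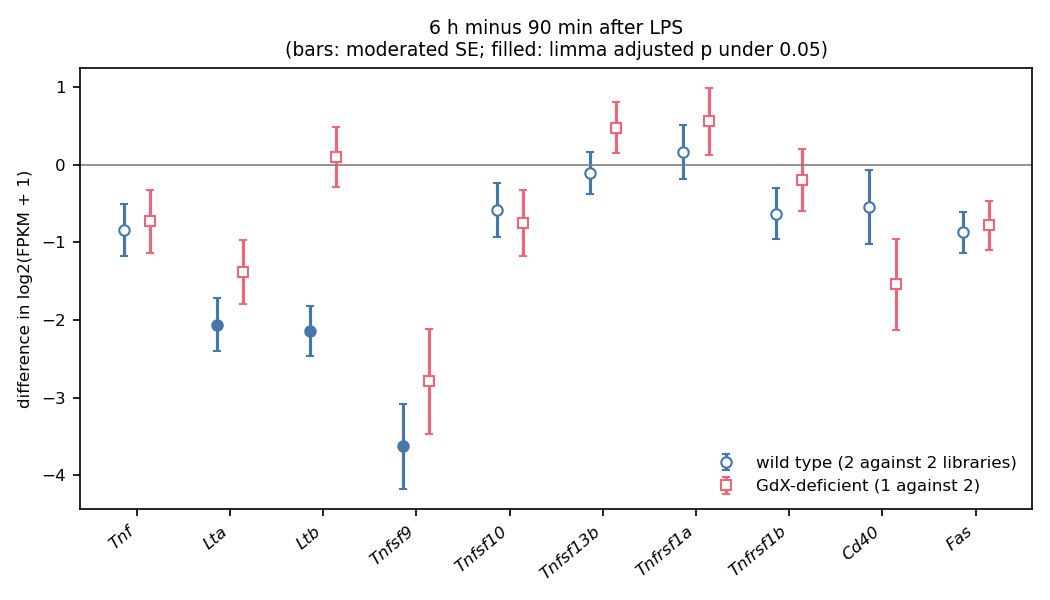
The vertical axis is the difference in log2(FPKM + 1) between 6 h and 90 min for each member (horizontal axis), in wild type (blue circles) and in GdX-deficient spleen (red squares, 1 library at 6 h). Bars are moderated standard errors and filled symbols passed the limma threshold: Lta, Ltb and Tnfsf9 in wild type, with Ltb at -2.14 in wild type and 0.10 in GdX-deficient spleen.

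Genotype was compared at 90 min between 2 GdX-deficient and 2 wild-type libraries. None of the 10 members passed the threshold in limma, where 0.0176% of all genes did. An unadjusted p under 0.05 was reached by 1 member, Tnfsf9, and by 862 genes, 7.58% of those tested. For 3 members both GdX-deficient libraries lay below both of wild type (23.4% of all genes), and for 1 they lay above (24.1%). The members' median log2 difference was -0.35, against 0.07 for all genes.

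The members that lay lower without overlap were Ltb, Tnfsf9 and Fas, and none of them passed the threshold. Ltb, at 254 and 338 against 474 and 358 FPKM, had a log2 difference of -0.49 (SE 0.32, limma adjusted p = 0.636). Tnfsf9, at 53.2 and 11.6 against 57.3 and 66.3 FPKM, had -1.26 (SE 0.55, limma adjusted p = 0.621). Fas, at 47.2 and 33.3 against 56.8 and 55.4 FPKM, had -0.49 (SE 0.26, limma adjusted p = 0.621). The gaps were small for Ltb and for the first of the Tnfsf9 libraries. Tnfsf10 lay higher without overlap, at 14.8 and 13.9 against 6.86 and 11.5 FPKM, and did not pass either (0.63, SE 0.35, limma adjusted p = 0.621).

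The levels of Tnfsf13b, Tnfrsf1a and Tnfrsf1b overlapped between the genotypes, with limma adjusted p of 0.870, 0.733 and 0.866. The GdX-deficient libraries at 90 min differed from each other. Replicate 2 was the lowest of the 4 libraries at this time for 6 of the 10 members, Tnf, Lta, Tnfsf9, Tnfrsf1b, Cd40 and Fas. Cd40 stood at 294 FPKM in replicate 1, within the range of wild type, and at 83.7 FPKM in replicate 2. Its log2 difference from wild type was -0.81 (SE 0.48, limma adjusted p = 0.629) and turned to 0.09 without replicate 2. The same exclusion turned Tnf from -0.37 to 0.14 and Lta from -0.33 to 0.14. It brought Tnfsf9 from -1.26 to -0.21 and Fas from -0.49 to -0.24, and leaving out replicate 1 instead gave -2.31 and -0.74. The 8 neutrophil markers of the fixed list summed to 4750 FPKM in replicate 2, against 998 FPKM in replicate 1 and 688 to 1070 FPKM in wild type at 90 min, and all 8 were above 0 in every library. The part of these markers in the results was not tested.

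At 6 h, 1 GdX-deficient library was set against 2 of wild type, so each difference rests on a library without a replicate. With limma, 1 of the 10 members passed as higher, against 2.91% of all genes, and 0 as lower, against 1.05%. Over all genes that was 331 higher and 119 lower calls, against 166 and 104 after quantile normalization and 204 and 35 after rescaling without globin genes. The GdX-deficient library lay above both wild-type libraries for 5 members (54.9% of all genes) and below both for 4 (25.3%). The members' median log2 difference of 0.31 was close to that of all genes, 0.32. Both medians moved with the scaling, to -0.10 and -0.02 after quantile normalization and to 0.59 each after rescaling without globin genes.

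Ltb was the member that passed. The GdX-deficient library held 314 FPKM and those of wild type 121 and 71.2 FPKM, a ratio of 3.36 on the log2(FPKM + 1) scale (log2 difference 1.75, SE 0.39, limma adjusted p = 0.0446). The call was lost without a filter on low values (limma adjusted p = 0.106), with a stricter filter, a mean of 5 FPKM or more (0.0558), and without replicate 1 (0.0591) or replicate 2 (0.0588) of the GdX-deficient 90 min group, which enter through the shared spread. Over all 13 alternatives the log2 difference lay between 1.37 and 2.13.

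Cd40 had the largest difference in the other direction. The GdX-deficient library held 53.3 FPKM, far below the 188 and 191 FPKM of wild type. The log2 difference was -1.81 (SE 0.59, limma adjusted p = 0.0943) and did not pass the threshold. It passed in 8 of 13 alternatives, among them the fit of only the libraries compared (limma adjusted p = 0.00583) and all 6 that left out 1 library, and its adjusted p over the alternatives ranged up to 0.213.

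The other members differed by less than 1 on the log2 scale at 6 h, with limma adjusted p from 0.306 to 0.696. Tnfrsf1a stood at 47.2 against 22.6 and 36.0 FPKM (log2 difference 0.71) and Tnfsf13b at 3.20 against 2.28 and 1.83 FPKM (0.46). Both were at their highest level of all 7 libraries there, though Tnfsf13b changed sign to -0.13 after quantile normalization. Tnfsf10 stood at 8.13 against 4.31 and 7.30 FPKM and Lta at 11.0 against 7.89 and 8.98 FPKM, and both also changed sign after quantile normalization, to -0.05 and -0.07. Tnf stood at 27.9 against 35.9 and 31.8 FPKM (-0.27, and 0.00 after rescaling without globin genes). Fas stood at 22.7 against 29.9 and 30.4 FPKM (-0.40) and Tnfsf9 at 2.78 against 4.11 and 4.04 FPKM (-0.42). Tnfrsf1b, at 44.4 FPKM, lay between the wild-type libraries.

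**Figure D3:**
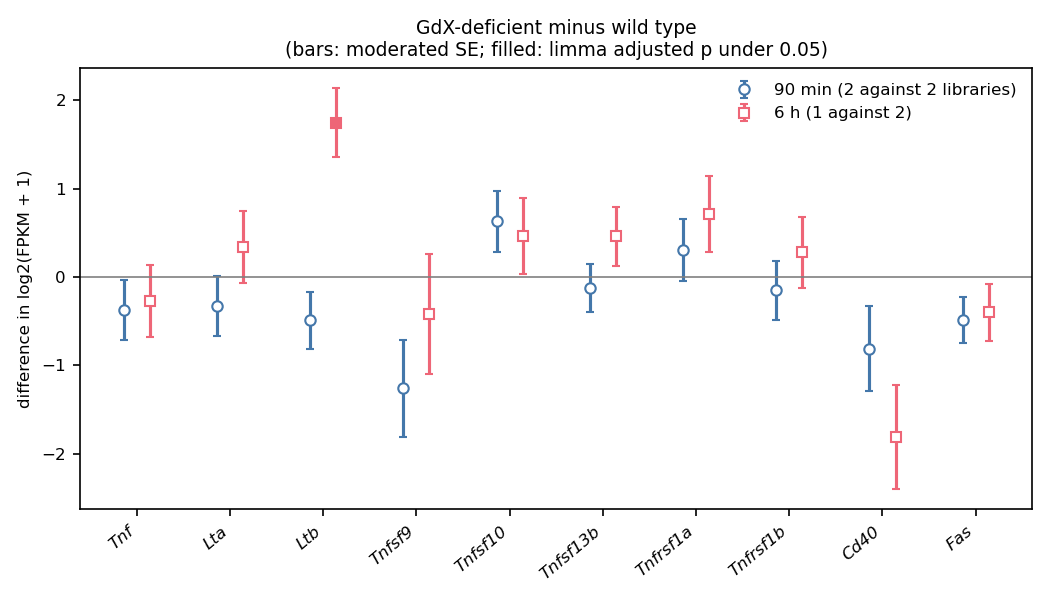
The vertical axis is the difference in log2(FPKM + 1) between GdX-deficient and wild-type spleen for each member (horizontal axis), at 90 min (blue circles, 2 against 2 libraries) and at 6 h (red squares, 1 against 2). Bars are moderated standard errors and filled symbols passed the limma threshold: Ltb at 6 h (1.75) is the single one, and Cd40 at 6 h lies at -1.81.

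A model of both times, with time as a term, compared the 3 GdX-deficient with the 4 wild-type libraries. None of the members passed in limma, where 0.0439% of all genes did. An unadjusted p under 0.05 was found for 2 of the 10 members, Cd40 and Fas, and for 3071 genes, 27% of those tested. Cd40 had the smallest p of the members (log2 difference -1.21, SE 0.38, limma adjusted p = 0.111). It passed once replicate 1 of GdX-deficient spleen at 90 min was left out (-1.76, limma adjusted p = 0.00967). Ltb, lower at 90 min and higher at 6 h, averaged 0.41 (SE 0.41, limma adjusted p = 0.530) and was -0.49 without the GdX-deficient 6 h library.

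Markers of most cell types of the fixed lists, B and T cells among them, moved with Ltb in wild type over time. They also did so between genotypes at 6 h, while neutrophil markers did not follow Ltb in wild type. Between genotypes at 90 min Ltb was -0.49, and the lists went in either direction. Median log2 differences there were 0.21 for B-cell, 0.43 for natural killer cell, 0.84 for red cell and 1.36 for neutrophil markers. They were -0.06 for T-cell, -0.2 for macrophage and monocyte and -0.29 for dendritic cell markers. The 8 B-cell markers summed to 1670 and 1560 FPKM in the early wild-type libraries, 503 and 515 FPKM in the late ones. The GdX-deficient sums were 1350 and 2210 FPKM early and 1860 FPKM late. In wild type all 8 B-cell markers were lower at 6 h, 4 of them past the threshold, and all 8 T-cell markers were lower, 5 past it. The T-cell markers summed to 476 and 405 FPKM early and 211 and 174 FPKM late in wild type, and to 344, 460 and, late, 384 FPKM in GdX-deficient spleen. Between genotypes at 6 h, all 8 markers of either list were higher in the GdX-deficient library, 3 of the B-cell and 2 of the T-cell markers past the threshold. Most other lists had the same direction. In wild type over time, 8 of 8 macrophage and monocyte markers were lower late, 4 of them past the threshold. The same held for 4 of 5 tested dendritic cell markers (4 past it), 5 of 5 natural killer cell markers (2 past it) and 5 of 5 red cell markers (5 past it). Neutrophil markers went the other way, with 6 of 8 higher late, 0 past the threshold and a median log2 difference of 0.30. At 6 h every tested marker of these lists was higher in the GdX-deficient library, with 1, 1, 0, 4 and 0 of them past the threshold in the same order. Red cell markers summed to 267 FPKM there, against 45.3 and 67.4 FPKM in wild type, and neutrophil markers to 2630 FPKM, against 1070 and 751 FPKM.

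Set against the B-cell marker sum of the same library, Ltb gave ratios of 0.284 and 0.229 in wild type at 90 min and 0.240 and 0.138 at 6 h. The GdX-deficient ratios were 0.189 and 0.153 at 90 min and 0.169 at 6 h. On this scale the wild-type groups overlapped between the times, and the GdX-deficient library at 6 h lay between the wild-type libraries of that time. Against the T-cell marker sum, Ltb gave 0.997 and 0.883 at 90 min and 0.572 and 0.410 at 6 h in wild type, and 0.740, 0.735 and 0.818 in GdX-deficient spleen, the last at 6 h. On this second scale the wild-type times stayed apart, and the GdX-deficient library at 6 h lay above both of wild type.

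The ratio of Cd40 to the B-cell marker sum was 0.153 and 0.191 in wild type at 90 min and 0.373 and 0.370 at 6 h, and 0.218 and 0.038 at 90 min and 0.029 at 6 h in GdX-deficient spleen. The GdX-deficient libraries with the lowest Cd40, replicate 2 at 90 min and the library at 6 h, had the 2 highest B-cell marker sums of the 7. They also had the 2 highest neutrophil marker sums, 4750 and 2630 FPKM, against 688 to 1070 FPKM in the other libraries. The 8 macrophage and monocyte markers, all above 0 in every library, summed to 1170 and 1200 FPKM early and 753 and 625 FPKM late in wild type, where Cd40 was also lower late. Their GdX-deficient sums were 1070 and 841 FPKM early, the lower in the replicate with the lower Cd40, and 1100 FPKM late, where Cd40 was lowest. The part of cell composition in either gene's result was not tested.

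**Figure D4:**
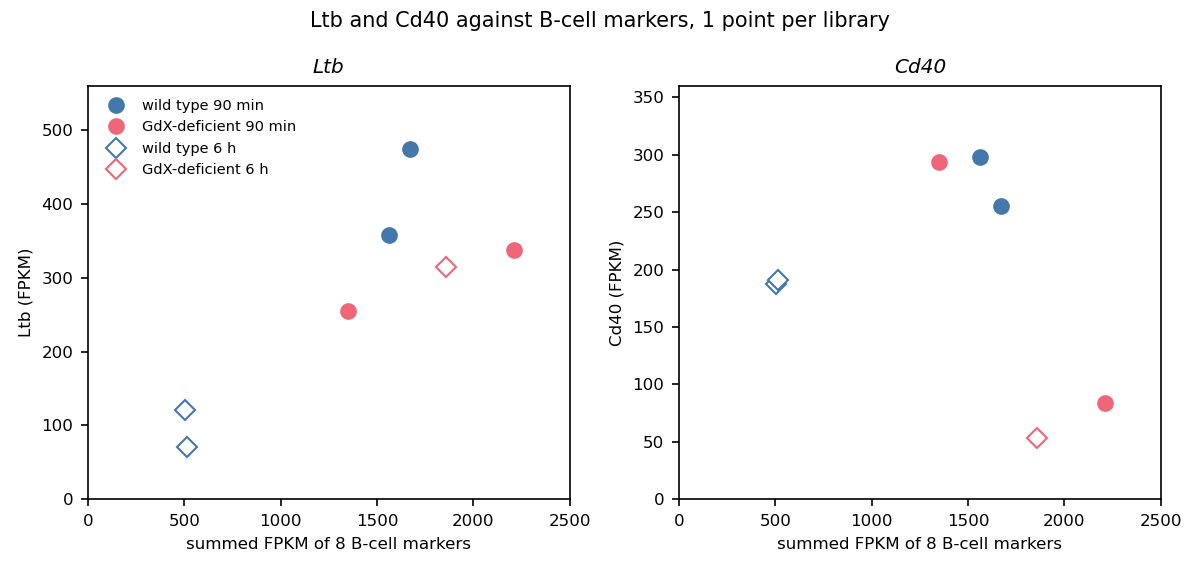
Each point is 1 library, with the summed FPKM of 8 B-cell markers on the horizontal axis and the FPKM of Ltb (left) or Cd40 (right) on the vertical axis. Filled circles are 90 min and open diamonds 6 h, blue wild type and red GdX-deficient; the wild-type libraries at 6 h sit near 503 and 515 on the horizontal axis with low Ltb, and the lowest Cd40 values, 53.3 and 83.7 FPKM, sit at 1860 and 2210.

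The courses of the members resembled each other to different degrees. Across the 7 libraries, which share groups, Pearson's r of log2(FPKM + 1) was 0.97 for Tnfsf9 with both Lta and Fas, and 0.95 and 0.94 for Tnf with Tnfsf9 and Fas. Ltb correlated with Tnf at 0.45 and with Cd40 at -0.08. Tnf correlated most, among all genes tested, with Muc1 (0.981), Dusp14 (0.978) and Nfkbid (0.978), and Cd40 with Il27 (0.990), Adm (0.985) and Ikzf4 (0.979). Muc1 encodes a cell-surface mucin, Dusp14 a protein phosphatase and Nfkbid a nuclear IkB protein. Il27 encodes a subunit of interleukin 27, Adm adrenomedullin and Ikzf4 a zinc finger transcription factor.

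The rest of the superfamily was read from lists of 12 other ligands and 24 other receptors, of which 7 and 16 passed the filter on low values. In wild type, the ligands Tnfsf13 and Tnfsf15 fell by 6 h and the receptor gene Tnfrsf13b rose. Of the 7 tested ligands, all 7 were lower at 6 h and 2 passed, against 6.32% of all genes called lower, with a median log2 difference of -0.40. Of the 16 receptors, 8 were lower and 1 passed, as higher, against 4.39% of all genes, with a median of 0.00, against 0.05 for all genes.

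Tnfrsf13b encodes TACI, a receptor on B cells that binds the product of Tnfsf13b, BAFF, and that of Tnfsf13, APRIL. Wild type held 27.9 and 21.9 FPKM early, then 96.6 and 105 FPKM late (log2 difference 1.98, SE 0.40, limma adjusted p = 0.0178). The late libraries lay far above the early ones while the B-cell marker sum was lower in them. In GdX-deficient spleen it measured 17.6 and 47.4 FPKM early and 47.4 FPKM late. Its wild-type call was lost without a filter on low values (limma adjusted p = 0.0830).

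Tnfsf13 measured 4.73 and 5.18 FPKM early, then 1.90 and 1.54 FPKM late in wild type (log2 difference -1.13, SE 0.27, limma adjusted p = 0.0311). Tnfsf15, which encodes the ligand TL1A, stood at 5.48 and 5.87 FPKM and then at 0.83 and 1.15 FPKM (-1.75, SE 0.38, limma adjusted p = 0.0212). Both genes were low, so their differences on this scale understate the change. In GdX-deficient spleen Tnfsf13 stood at 5.35, 5.34 and 3.09 FPKM and Tnfsf15 at 6.52, 2.33 and 1.35 FPKM, the last of each at 6 h. Over 13 alternatives each, the Tnfsf13 call held in 8 and the Tnfsf15 call in 11. Tnfsf13 lost it without replicate 1 (limma adjusted p = 0.181) or 2 (0.233) of wild type at 90 min and without replicate 2 at 6 h (0.0687).

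Of 20 genes of proximal TNF receptor signalling, all tested, 1 passed in wild type over time, as higher (4.39% of all genes), with a median log2 difference of -0.09. It was Mlkl, the pseudokinase that executes necroptosis, at 6.67 and 8.88 FPKM early, then 22.3 and 26.1 FPKM late (log2 difference 1.53, SE 0.32, limma adjusted p = 0.0183). The groups were separate, and the call held in 11 of 14 alternatives, being lost among others without replicate 1 of wild type at 90 min (limma adjusted p = 0.136). In GdX-deficient spleen Mlkl measured 8.99 and 5.64 FPKM early and 14.2 FPKM late. Between genotypes, none of the other ligands, other receptors or signalling genes passed in limma at 90 min, where 1, 2 and 0 of them had an unadjusted p under 0.05, against 7.58% of all genes. At 6 h again none passed in limma, with 2, 2 and 0 at an unadjusted p under 0.05, against 28.4% of all genes. In the model of both times none passed in limma either, and 2 of 7 ligands, 8 of 16 receptors and 1 of 20 signalling genes had an unadjusted p under 0.05, against 27% of all genes.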

How the data were processed

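Spleen RNA of 7 libraries was given by the authors as FPKM per the file headers, that is, fragments scaled to transcript length and to the mapped fragments of the library, for 17920 genes. The submitters' processing notes name HISAT, HISAT2 2.0.4, Bowtie2, RSEM and the build GRCm38.p5, without saying which step used which. Whether counting used strand, and any filter, are not given in the sources used here. Columns were matched to samples by title, and 0 value columns were left unmatched.

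Values were converted to log2(FPKM + 1). Genes averaging 1 FPKM or more over the libraries, 11378 of them, went into limma 3.58.1 under R 4.3.3 (moderated variances that follow mean expression, two-sided, Benjamini-Hochberg adjustment over all genes tested, threshold 0.05). A fit of the 4 groups gave genotype at each time, time in each genotype and their interaction. An additive model gave genotype with time as covariate. The GdX-deficient group at 6 h holds 1 library, which the fit assumes to vary like the other groups. The p-values set each difference against a moderated spread between these libraries. In the fit of the 4 groups, the single GdX-deficient 6 h library adds no spread of its own. The fits were tested on simulated data.

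Fragments per library were estimated from the steps between low FPKM values, using transcript lengths from GENCODE M21. Alternatives were a pseudocount of 0.1, no filter or one at a mean of 5 FPKM, quantile normalization, rescaling without globin genes, a replicate block, fitting just the compared libraries, a fit without the trend for the interaction, and leaving out each library. Named genes were the 10 members whatever their values, up to 5 genes per comparison past the threshold from each list of other family and signalling genes, and the 3 genes most correlated with Tnf and with Cd40. The members and lists were chosen with earlier results of these data known. The ratios to B-cell and T-cell markers, and the overlaps with other gene entries, were added after the values were seen.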

Additional observations from a re-analysis of the deposited data

How the results depend on the processing

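Over the alternatives, 665 member and list values were recomputed: 606 kept direction and side of the threshold, 24 changed sign, 16 lost their call and 19 gained one. Counts are of genes called by limma unless members are named, and the cause of each move was not tested. Genotype at 90 min called 2 genes, 181 with only the libraries compared, 0 rescaled without globin genes and 2 to 183 leaving out 1 library (without wild type 6 h replicate 2; 173 without replicate 1). Genotype at 6 h called 450: 90 without a filter, 233 with a mean FPKM of at least 5, 270 after quantile normalization, 239 without globin genes, 885 with only the libraries compared, and 627 to 3035 (without wild type 6 h replicate 2) leaving out 1 library. Its called members were 1, but 0 with either filter setting, 2 with only the libraries compared and 1 to 2 leaving out 1 library. Genotype with time as covariate called 5, 2 without globin genes and 2 (without the GdX-deficient 6 h library) to 1674 (without replicate 1 of GdX-deficient 90 min) leaving out 1 library, with 0 to 1 members. Time in wild type called 1218: 635 without a filter, 712 without globin genes and 450 (without wild type 90 min replicate 1) to 1774 leaving out 1 library. Time in GdX-deficient called 0: 22 without a filter, 251 (2 members) with only the libraries compared, and 0 to 236 (0 to 1 members) leaving out 1 library. The interaction called 8: 0 with a pseudocount of 0.1, with a mean of at least 5 or without globin genes, 3 without a filter, 4 after quantile normalization, 2 without the trend, and 0 to 238 (0 to 1 members) leaving out 1 library.

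None of the 17 results with a sign change passed under any setting. After quantile normalization, Lta (-0.07), Tnfsf10 (-0.05) and Tnfsf13b (-0.13) changed sign at 6 h between genotypes and Tnfsf13b (0.06) over time in wild type. Without globin genes, Tnfsf13b (0.03) and Tnfrsf1b (0.05) did so at 90 min, and Tnf came to 0.00 at 6 h. Leaving out 1 library gave these ranges. Between genotypes at 90 min, Cd40 lay from -1.71 to 0.09, Lta from -0.81 to 0.14, Tnf from -0.89 to 0.14, Tnfrsf1a from -0.14 to 0.77, Tnfrsf1b from -0.42 to 0.12 and Tnfsf13b from -0.29 to 0.05. At 6 h, Tnfrsf1b lay from -0.06 to 0.62, and with time as covariate Ltb from -0.49 to 0.73. Over time, Tnfrsf1a (-0.29 to 0.62) and Tnfsf13b (-0.27 to 0.07) changed sign in wild type, and Ltb (-0.11 to 0.30) and Tnfrsf1b (-0.46 to 0.08) in GdX-deficient spleen. The Tnfsf9 interaction lay from -0.22 to 1.89.

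The replicate numbers were not taken to pair the libraries. The replicate 1 minus 2 differences correlated across genes at 0.768 between the wild-type times, -0.120 between the genotypes at 90 min and 0.080 between GdX-deficient 90 min and wild type 6 h. With the replicate block, 3383 genes (2 members) were called for genotype at 6 h, 12 with time as covariate, 2345 for time in wild type (4 members), 37 for time in GdX-deficient, where Ltb was -0.03, 80 for the interaction and 2 for genotype at 90 min. Exchanging the numbers of the GdX-deficient 90 min libraries, added after the data were seen and run for genotype at 90 min alone, gave 2 calls there. Depth is an estimate from FPKM steps, and each difference rests on 1 or 2 libraries per group. Count-based tests (edgeR, DESeq2) were not run, since the values are FPKM.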
